A study of Homo sapiens with 12 samples.

Results

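The BCL2 family was described here through 10 genes listed by symbol, a list that was drawn up with earlier results of these data known. They are the anti-apoptotic genes BCL2, MCL1, BCL2L1 and BCL2A1, the pore-forming effectors BAX and BAK1, and the BH3-only genes BCL2L11, PMAIP1, BBC3 and BID. All 10 were found among the 63677 genes of the count table, and all 10 passed the filter on low counts that left 18674 genes for testing.

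RNA-seq was performed on JEKO1, JVM2 and MAVER1, 3 established cell lines of mantle cell lymphoma (MCL), a B-cell lymphoma driven by cyclin D1. The treatments lasted 48 h and were control, ironomycin (derived from salinomycin, it traps lysosomal iron), ibrutinib (an inhibitor of the B-cell receptor kinase BTK) and the combination of both drugs. Doses depended on the line: JEKO1 received 50 nM ironomycin and 0.5 μM ibrutinib, JVM2 250 nM and 1.5 μM, and MAVER1 250 nM and 6.25 μM. Each line gave 1 library per treatment, so the 3 lines served as the replicates of a treatment (n = 3). JVM2 was also grown at another cell density and serum content than the other lines, and line, dose and culture conditions cannot be told apart in these data.

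Proteins of this family decide whether the outer mitochondrial membrane stays intact. BAX and BAK1 form pores that release cytochrome c, the anti-apoptotic members hold them and the BH3-only proteins in check, and the BH3-only proteins report stress by neutralising the anti-apoptotic members or by activating the effectors directly. In B-cell lymphomas, BCL2 and MCL1 are known survival factors and drug targets. The counts measure mRNA per gene, so protein levels, protein stability and splice forms (such as the long and short forms of BCL2L1 and MCL1) are not seen.

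The libraries held 35448523 to 38630809 counted reads. The B-cell markers MS4A1, CD79A, CD79B and PAX5 were read at least 3614 times each in every library. Among markers of MCL, SOX11 was at 0 and CD5 at 1 to 2 reads in all JVM2 libraries, in which CCND1, the cyclin D1 gene, was also lower (8025 to 11280 reads, against at least 92232 in the other lines). Markers of T, NK and myeloid cells had at most 181 reads, with CSF1R in JVM2 the highest. The plasma cell marker SDC1 was at 45 to 62 reads in JEKO1, 3031 to 4332 in JVM2 and 1345 to 2179 in MAVER1. Levels are given below as CPM, reads scaled to the library total after TMM correction for composition, or as RPKM, which also divides by exon length. That length is the union of a gene's annotated exons and not that of the transcripts present. Ranks and shares between genes are therefore approximate. A gene is said to have risen, fallen or changed where edgeR's quasi-likelihood test, with treatment and cell line as terms, gave a Benjamini-Hochberg adjusted p under 0.05 over all genes tested.

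The promoters of BAX, BBC3 and BCL2L11 are shown because these were the members whose ironomycin effect differed between the lines. Each is the 250 bases before the RefSeq start, 5′ to 3′ on the strand of the gene, in build GRCh38.p14: chr19:48954625-48954874 (plus strand) for BAX, chr19:47232668-47232917 (minus strand) for BBC3 and chr2:111120664-111120913 (plus strand) for BCL2L11. The capitals mark the E-box CACGTG in BAX and BBC3 and the reverse complement of the FOXO motif TGTTTAC in BCL2L11.
BAX: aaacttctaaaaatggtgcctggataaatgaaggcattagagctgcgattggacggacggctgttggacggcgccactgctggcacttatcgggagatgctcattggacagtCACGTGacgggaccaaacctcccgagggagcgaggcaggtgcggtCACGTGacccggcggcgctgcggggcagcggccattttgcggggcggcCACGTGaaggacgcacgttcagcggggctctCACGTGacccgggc
BBC3: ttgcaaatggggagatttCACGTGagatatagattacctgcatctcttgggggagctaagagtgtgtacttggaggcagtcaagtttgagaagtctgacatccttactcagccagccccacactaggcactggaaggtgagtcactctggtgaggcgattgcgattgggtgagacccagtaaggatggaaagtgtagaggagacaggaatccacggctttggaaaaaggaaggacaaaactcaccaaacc
BCL2L11: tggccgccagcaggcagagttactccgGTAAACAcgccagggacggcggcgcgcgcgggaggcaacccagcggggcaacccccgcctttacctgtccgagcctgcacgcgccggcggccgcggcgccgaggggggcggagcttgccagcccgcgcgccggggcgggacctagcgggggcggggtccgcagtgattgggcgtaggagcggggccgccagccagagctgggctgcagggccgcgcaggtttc

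The BAX window held 4 copies of the E-box, which 5 of the 35116 windows of this length (0.0142%) matched with at least 4 copies, and the BBC3 window held 1. At least 1 E-box was found in 6.34% of all windows and the FOXO motif in 2.98%. Besides these, the CRE core TGACGT (7.1% of windows) was found in PMAIP1, the ATF4-C/EBP motif TGATGNAA (3.14%) in BCL2A1, the E-box in BID, and the NF-kB motif (9.96%) in no member. Both strands were searched, no motif overlapped another in the windows printed, and 9 of the 10 members had a window. Such a match is a description of letters and not of a bound site.

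In the lines themselves, without regard to treatment, the family was expressed in 3 different patterns. All 10 members differed in level between the lines, as did 90% of the genes tested. Per exon length and as the mean over treatments, MCL1 was the most abundant member in JEKO1 (65.8 ± 8.30 RPKM, SD over its 4 libraries). BAX was so in JVM2 (91.9 ± 6.90 RPKM) and BCL2 in MAVER1 (74.0 ± 28.4 RPKM). The MAVER1 mean was carried by the libraries with ironomycin, BCL2 being at 95.5 RPKM with ironomycin alone and at 101 with both drugs. In the MAVER1 control BCL2 was at 49.8 RPKM, below PMAIP1 at 59.5 and MCL1 at 52.8. The SDs include the treatments, since a line has no 2 libraries of 1 treatment.

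**Figure D1:**
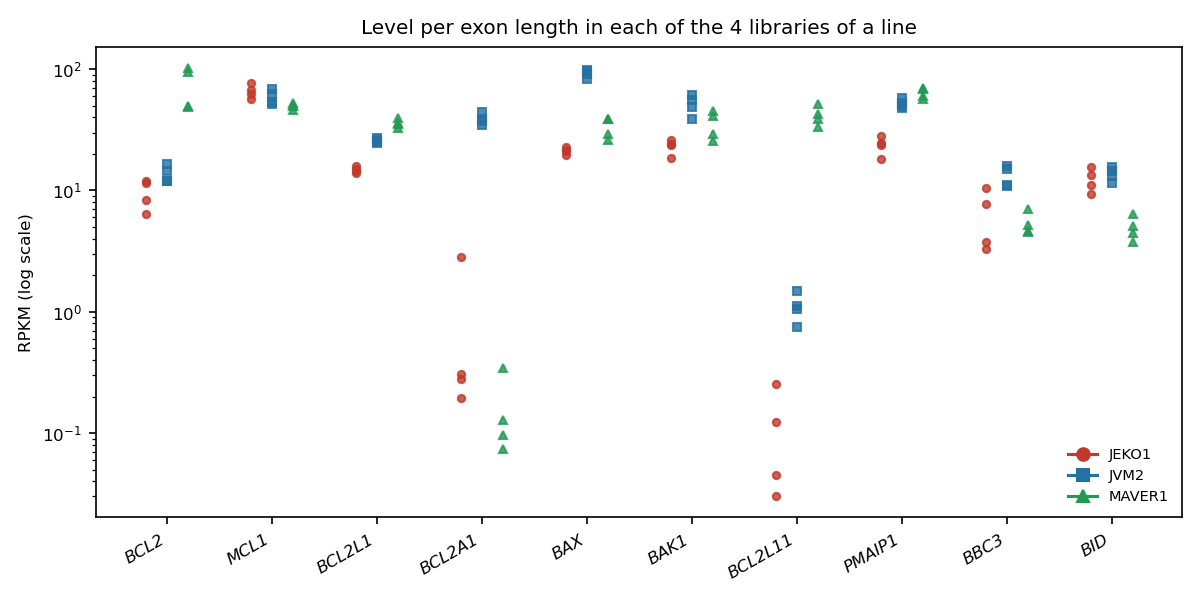
Level of each BCL2 family member per exon length (RPKM, log scale) in the 4 libraries of each line, 1 point per library. BCL2L11 lies between 0.0302 and 0.252 RPKM in JEKO1 and between 33.4 and 52.0 RPKM in MAVER1, and BCL2A1 is at 34.8 RPKM or more in JVM2 and at 2.81 or less in the other lines.

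The widest gaps between line means were those of BCL2L11, at 8.82 on the log2 CPM scale, and of BCL2A1, at 7.69. The median gap over all genes tested was 1.28. BCL2L11, which encodes BIM, was read 8 to 71 times in JEKO1, 185 to 346 times in JVM2 and 8053 to 13116 times in MAVER1. BCL2A1, an anti-apoptotic NF-kB target, was read 9 to 122 times in JEKO1, 1354 to 1750 times in JVM2 and 3 to 14 times in MAVER1. In each case the libraries of the high line did not overlap with those of the other lines. Of all genes tested, 90% differed in level between the lines, and the share without overlap was not counted. The gap of BCL2 was 2.91, with MAVER1 highest, then JVM2, then JEKO1. MCL1 had the smallest gap, at 0.40.

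Of the 30 pairs of lines compared over the members, 27 differed, where 78.3% of all genes differed between JVM2 and JEKO1, 66.4% between MAVER1 and JEKO1 and 71.2% between MAVER1 and JVM2. The pairs that did not pass were MCL1 between JVM2 and JEKO1 (log2 difference -0.16, 95% interval -0.34 to 0.02, adjusted p = 0.0864), BID between JVM2 and JEKO1 (0.16, -0.04 to 0.36, adjusted p = 0.135) and BBC3 between MAVER1 and JEKO1 (-0.13, -0.54 to 0.28, adjusted p = 0.553). JEKO1 was the lowest line for BCL2, BCL2L1, BAX, BAK1, BCL2L11 and PMAIP1. MAVER1 was lowest for MCL1, BCL2A1 and BID. The order of the lines was therefore not shared by the family, and each line had its own leading member by the mean over treatments.

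Among the anti-apoptotic members, the share of each in their summed RPKM set the lines apart. In the control libraries, MCL1 made up 73.7% of that sum in JEKO1, 45.6% in JVM2 and 38.1% in MAVER1. BCL2 made up 8.12%, 8.76% and 36.0%, and BCL2A1 2.72%, 27.4% and 0.0916%. BCL2L1, the gene of BCL-xL, made up 15.5%, 18.2% and 25.9%. In the ironomycin libraries the BCL2 share was 13.4%, 10.7% and 54.1% and the MCL1 share 70.1%, 38.0% and 25.9%, so that BCL2 took a larger share and MCL1 a smaller one in every line. With ibrutinib alone the BCL2 share was 7.17%, 8.34% and 37.0%.

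The neighbourhood of BCL2L11 was looked at after its levels were known. Genes with few reads in every library were passed over, so the order of neighbours counts only the genes kept. ACOXL, next but 1 to BCL2L11 on one side, had 5 to 17 reads in JEKO1, 5 to 16 in JVM2 and 314 to 357 in MAVER1. MIR4435-2HG, a non-coding RNA gene next to it on the other side, had 6 to 14, 51 to 83 and 639 to 742 reads. ACOXL was kept through its MAVER1 reads alone, so its being highest there was fixed by that choice. MIR4435-2HG was also highest in MAVER1. Whether these genes and BCL2L11 have a cause in common was not tested. Genes further out differed less or in another order. BUB1 had 4534 to 5303 reads in JEKO1, 4901 to 5880 in JVM2 and 10128 to 12354 in MAVER1. MERTK was highest in JVM2, with 320 to 349 reads. BCL2L11 itself was about as abundant in MAVER1 as MCL1, at 41.7 ± 7.86 against 49.7 ± 2.88 RPKM (SD, n = 4).

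The first comparison asked how each drug alone changed the family. Against control, 0 of 10 members passed the test with ironomycin, where 0.584% of all genes did, and 0 of 10 with ibrutinib, where 0% did. At an unadjusted p under 0.05 the counts were 5 of 10 members with ironomycin (22.5% of genes) and 1 of 10 with ibrutinib (3.64% of genes). The 5 were BCL2, BBC3, MCL1, BAK1 and BID. With DESeq2 in place of edgeR, 4 of 10 members passed with ironomycin (BCL2, MCL1, BAK1 and BID; 12.6% of genes) and 0 of 10 with ibrutinib (0.139%). Without JVM2, edgeR called 1 member with ironomycin, BCL2 (log2 fold change 0.69, adjusted p = 0.0299), and 9.1% of genes.

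The combination against control gave 4 of 10 members, where 28.2% of all genes passed. BCL2 and BBC3 rose (14.2% of genes rose), and BAK1 and BID fell (14% fell). None of these changes reached a log2 fold change of 1 (6.29% of genes passed with such a change), and DESeq2 called 5 members (33.6% of genes), the same 4 and MCL1. Scaling by library totals moved the median change of all genes from 0.05 to 0.18 and the share of calls that were higher from 50.4% to 71.6%, with the same 4 members called. The control libraries are shared by the comparisons with each drug and with the combination, so these comparisons are not independent of each other.

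**Figure D2:**
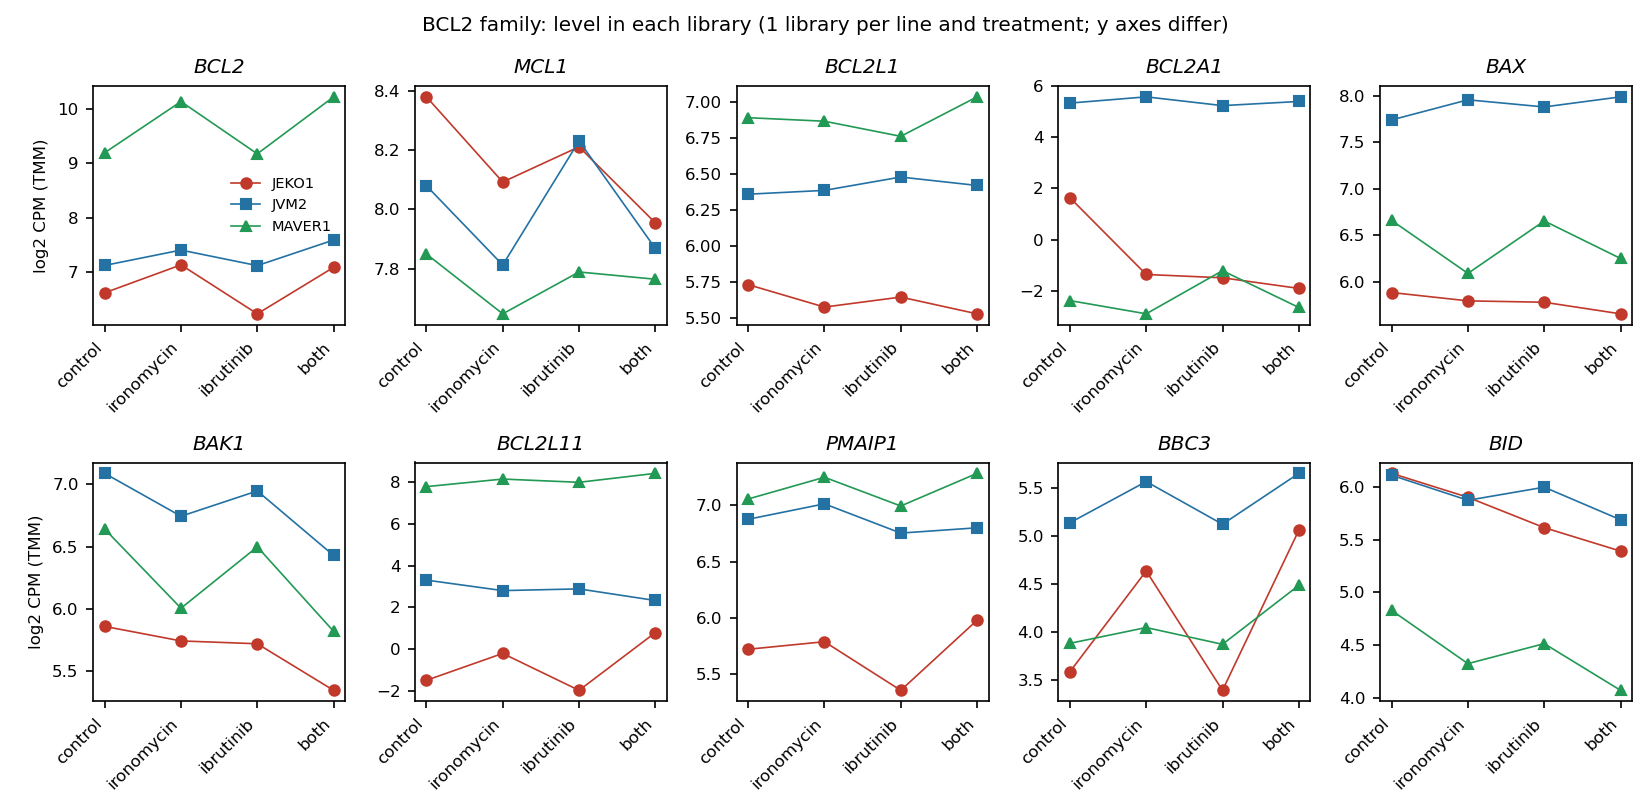
Level of the 10 members (log2 CPM after TMM, y axes differ) in the 12 libraries, 1 point per library, with lines joining the libraries of a cell line. BCL2 and BBC3 are higher, and BAK1 and BID lower, in the library with both drugs than in the control library of every line.

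BCL2, the founding anti-apoptotic member, was highest in MAVER1 with every treatment. In JEKO1 it was at 98.8, 141, 75.6 and 137 CPM, in the order control, ironomycin, ibrutinib and both drugs. In JVM2 it was at 140.0, 170.2, 139.6 and 193 CPM. In MAVER1 it was at 586, 1124, 578 and 1193 CPM. The 2 ironomycin libraries of each line were above its 2 libraries without ironomycin, whether or not ibrutinib was present. How many of all genes were so ordered was not counted. The fitted log2 fold change was 0.58 with ironomycin (95% interval 0.26 to 0.89, adjusted p = 0.0758), -0.14 with ibrutinib (-0.45 to 0.18, not past the test) and 0.65 with both (0.33 to 0.97, adjusted p = 0.00926).

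MCL1, a short-lived anti-apoptotic protein whose mRNA also turns over fast, was lower with ironomycin in every line but did not pass. The share of all genes lower in every line was not counted. It was at 333, 273, 296 and 248 CPM in JEKO1, in the order control, ironomycin, ibrutinib and both drugs. The JVM2 values were 271, 225, 301 and 234 CPM, and those of MAVER1 231, 200.4, 221 and 217 CPM. The fitted log2 fold change was -0.25 with ironomycin (adjusted p = 0.149) and -0.24 with both drugs (95% interval -0.45 to -0.03, adjusted p = 0.0761). With DESeq2 the combination value was -0.26 (adjusted p = 0.0151), so the call depended on the tool.

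BCL2L1 changed little with any treatment. Its log2 ratio to control ran from -0.20 to 0.14 over the 9 treated libraries, and its fitted change with both drugs was 0.00 (95% interval -0.20 to 0.20, adjusted p = 0.982). That interval leaves room for a change of 0.20 in either direction.

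BCL2A1 was low with every treatment in JEKO1. There the control had 122 reads, the ironomycin library 14, the ibrutinib library 12 and the combination 9, so that the CPM of the treated libraries was 0.109, 0.0984 and 0.0695 of the control. In JVM2 it had 1421, 1750, 1354 and 1573 reads, a spread of less than 1.5-fold. In MAVER1 it had 5, 3, 14 and 4 reads, too few to compare. The low values were thus those of JEKO1, set against its single control library, and over the 3 lines BCL2A1 did not pass with any treatment (both drugs against control: log2 fold change -1.25, 95% interval -2.77 to 0.27, adjusted p = 0.196). Without JVM2 the combination value was -3.05 (adjusted p = 0.0440).

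BAK1 and BID were lower with both drugs in every line. BAK1 was at 58.1, 53.6, 52.7 and 40.7 CPM in JEKO1, in the order control, ironomycin, ibrutinib and both drugs. In JVM2 it was at 136, 107, 123 and 86.2 CPM, and in MAVER1 at 99.8, 64.3, 90.4 and 56.5 CPM. The library with both drugs was the lowest of the 4 in each line, and both single-drug libraries lay below control. The share of all genes so ordered was not counted, here or for BID below. The fitted log2 fold change was -0.36 with ironomycin (adjusted p = 0.0894), -0.14 with ibrutinib and -0.67 with both drugs (95% interval -0.89 to -0.44, adjusted p = 0.00341).

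BID, the BH3-only protein that caspase 8 cleaves to carry death receptor signals to mitochondria, was also lowest with both drugs in each line. It was at 69.8, 59.7, 48.9 and 41.9 CPM in JEKO1, at 69.0, 58.5, 63.8 and 51.5 CPM in JVM2 and at 28.4, 20.0, 22.8 and 16.8 CPM in MAVER1. BID was the 1 member with an unadjusted p under 0.05 for ibrutinib, at a log2 fold change of -0.31, and did not pass after adjustment. With both drugs it was -0.64 (95% interval -0.87 to -0.40, adjusted p = 0.00383). Centred within each line, the log2 CPM of BID and BAK1 correlated at r = 0.90 over the 12 libraries, the highest value among the members, as a description over libraries that share lines and treatments.

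BBC3, which encodes PUMA, rose with both drugs and had the largest fitted change of the members that passed. JEKO1 had 11.9, 24.8, 10.4 and 33.3 CPM, in the same order of treatments. JVM2 had 35.2, 47.4, 34.8 and 50.3 CPM, and MAVER1 14.7, 16.5, 14.6 and 22.3 CPM. The combination over control was thus 2.79-fold in JEKO1, 1.43-fold in JVM2 and 1.52-fold in MAVER1. The fitted log2 fold change was 0.55 with ironomycin (adjusted p = 0.162), -0.06 with ibrutinib and 0.87 with both drugs (95% interval 0.41 to 1.34, adjusted p = 0.0134).

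PMAIP1, the gene of NOXA, which neutralises MCL1, did not pass against control. JEKO1 had a log2 ratio of both drugs to control of 0.26, JVM2 of -0.08 and MAVER1 of 0.23. BAX did not pass in any of these comparisons either, and its ratios pointed in different directions in the lines. BCL2L11 was at 12, 34, 8 and 71 reads in JEKO1, 346, 253, 263 and 185 in JVM2 and 8053, 10660, 9534 and 13116 in MAVER1. It was thus highest with both drugs in JEKO1 and MAVER1 and lowest with both drugs in JVM2.

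**Figure D3:**
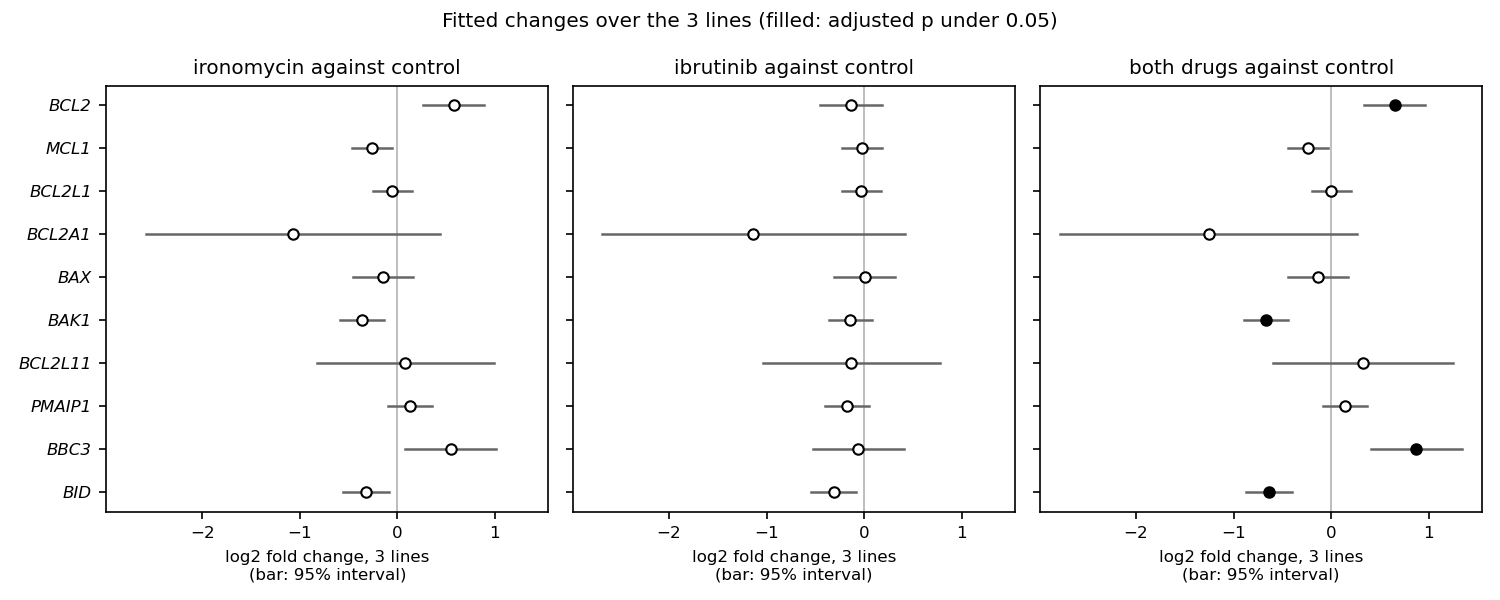
Fitted log2 fold change of each member over the 3 lines with its 95% interval, for ironomycin, ibrutinib and both drugs against control; filled points passed at an adjusted p under 0.05. BCL2, BAK1, BBC3 and BID are filled with both drugs, no point is filled with either single drug, and the intervals of BCL2A1 are the widest.

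The 4 calls with both drugs were lost without JEKO1 or MAVER1, with the changes in the same direction. Without JEKO1, 0 of 10 members and 0.207% of genes passed, with log2 fold changes of 0.74 for BCL2, 0.56 for BBC3, -0.74 for BAK1 and -0.59 for BID (adjusted p 0.0629 to 0.0825). Without MAVER1, 0 of 10 members and 0.117% of genes passed, with changes of 0.46, 1.01, -0.59 and -0.58 in the same order of genes (adjusted p 0.0726 to 0.127). Without JVM2, 5 members and 33.9% of genes passed. In the same libraries the B-cell marker CD79A fell by 0.53 on the log2 scale, and the changes of CD79B (-0.33), PAX5 (-0.20) and MS4A1 (-0.11) did not pass. Of the MCL markers, CD5 fell by 1.84 and SOX11 rose by 1.22. Among markers of other cells, 2 of the 3 T-cell markers were tested and fell, with a summed level of at most 2.49 CPM in any library, and the myeloid marker LYZ, at 4 to 35 reads, fell too; whether these have a part in the members' changes was not tested.

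The combination was then compared with each drug. Against ironomycin alone, 0 of 10 members passed, and 0% of all genes did; at an unadjusted p under 0.05 there were 2 members, BAK1 (-0.30) and BID (-0.32), and 10.5% of genes, and DESeq2 called 0 members and 0.873% of genes. Against ibrutinib alone, 5 of 10 members passed, where 23.3% of genes did. BCL2 (0.79), BBC3 (0.93) and PMAIP1 (0.32) rose (11.8% of genes rose), and BAK1 (-0.53) and BID (-0.33) fell (11.5% fell). PMAIP1 and BID were close to the threshold, with adjusted p values of 0.0433 and 0.0484, and were lost under other settings: PMAIP1 with DESeq2's size factors (adjusted p = 0.0534) and BID with library totals (adjusted p = 0.162), which also moved the share of calls that were higher from 50.7% to 71%. Without JEKO1 or MAVER1, 0 of 10 members and 0.00559% or 0.0318% of genes passed, with log2 fold changes of 0.75 and 0.65 for BCL2 and -0.60 and -0.45 for BAK1.

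Whether the combination departed from the sum of the single changes was asked with a contrast of all 4 treatments. No member passed (0 of 10, and 0 at an unadjusted p under 0.05; DESeq2 also called 0), and 0% of all genes did, with 1.97% at an unadjusted p under 0.05. The departure was 0.21 for BCL2 (95% interval -0.24 to 0.65) and 0.38 for BBC3 (-0.27 to 1.04) on the log2 scale. For BAK1 it was -0.16 (-0.48 to 0.15). With 1 library per line and treatment, departures smaller than these intervals were not detectable.

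The ironomycin effect was next estimated in each line, from its 2 libraries with and its 2 without the drug, ibrutinib being present in 1 of each. It differed between lines for 3 of 10 members, BBC3 (adjusted p = 0.00641), BCL2L11 (adjusted p = 0.0217) and BAX (adjusted p = 0.0263), where 9.38% of genes passed. The doses of the lines differed, so the lines' own values are set side by side.

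**Figure D4:**
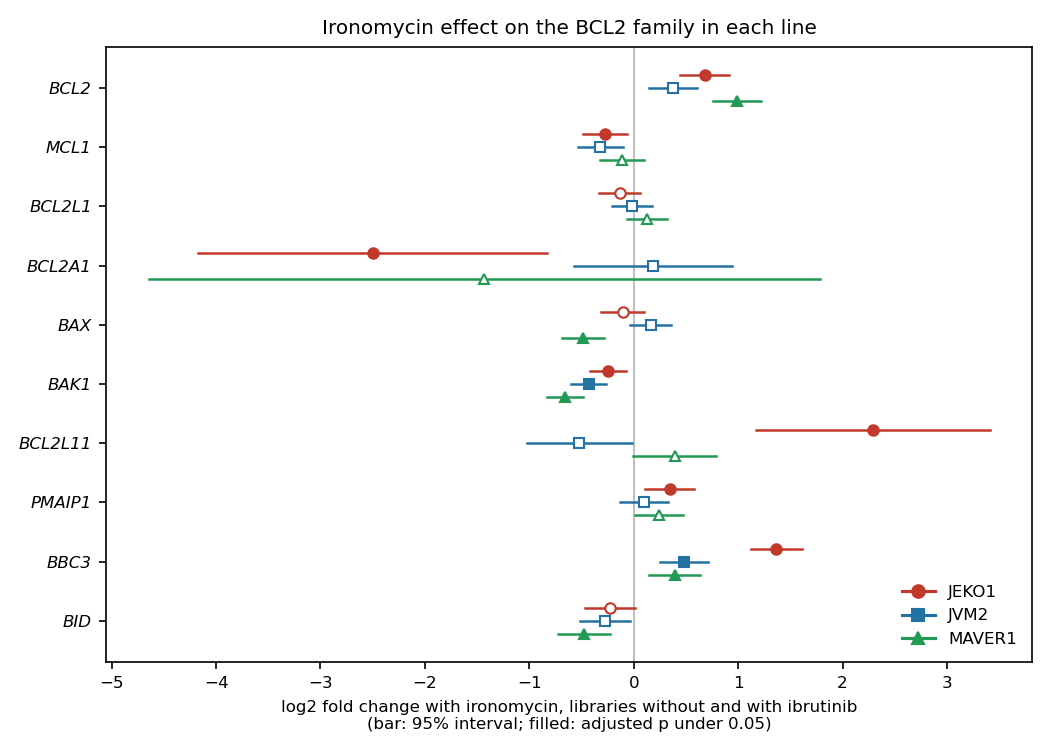
Log2 fold change with ironomycin in each line, from 2 libraries with and 2 without the drug, with 95% intervals; filled points passed at an adjusted p under 0.05. BBC3 and BCL2L11 reach 1.37 and 2.29 in JEKO1, BAX is below 0 in MAVER1, and BAK1 is below 0 and filled in all 3 lines.

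BBC3 rose in all 3 lines, by 1.37 in JEKO1 (95% interval 1.12 to 1.61), 0.48 in JVM2 (0.25 to 0.71) and 0.39 in MAVER1 (0.15 to 0.64). Its log2 ratio of ironomycin over control was 1.05, 0.43 and 0.16 in these lines, and that of both drugs over ibrutinib 1.67, 0.53 and 0.62. Without JEKO1 the difference between the other 2 lines had an adjusted p of 0.752. BCL2L11 was 2.29 in JEKO1 (1.17 to 3.41, adjusted p = 0.00586), where it was read 71 times at most, -0.52 in JVM2 (-1.02 to -0.02, adjusted p = 0.235) and 0.39 in MAVER1 (0.00 to 0.79, adjusted p = 0.122). BAX, the effector, was at 101 and 101 CPM in the MAVER1 libraries without ironomycin and at 68.0 and 76.0 CPM in those with it. That fall of 0.49 passed (adjusted p = 0.00225). In JVM2 the values were 214 and 235 CPM without and 248 and 254 CPM with ironomycin, a log2 difference of 0.16 that did not pass (-0.04 to 0.36, adjusted p = 0.357). In JEKO1 the BAX difference was -0.11 (-0.31 to 0.10). The BAX difference was thus negative in MAVER1 and positive in JVM2, where it did not pass. Without JVM2 the adjusted p of the BAX difference was 0.139 and without MAVER1 0.412, and without MAVER1 that of BCL2L11 was 0.0556. The widest difference from JEKO1 was -2.80 for BCL2L11 without MAVER1, beside -2.81 in all lines. For BAX it was -0.38 without JVM2, beside -0.38 in all lines, and 0.29 without MAVER1. Such a difference is estimated mainly from the 2 lines it compares, so leaving out the remaining line could move it little.

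BAK1 fell in all 3 lines, by 0.24 in JEKO1 (with TMM, though not with library totals), 0.43 in JVM2 and 0.66 in MAVER1. Its log2 ratio in JEKO1 was -0.12 for ironomycin over control and -0.37 for both drugs over ibrutinib. BCL2 rose by 0.68 in JEKO1 and 0.99 in MAVER1, and its value in JVM2 was 0.38 (0.14 to 0.61, adjusted p = 0.0789). In JEKO1, BCL2A1 fell by 2.50, MCL1 fell by 0.27 and PMAIP1 rose by 0.35. The BCL2A1 value rested on the single control library, with a log2 ratio of -3.01 for ironomycin over control and -0.42 for both drugs over ibrutinib (9 against 12 reads). For PMAIP1 these ratios were 0.07 and 0.62, the ibrutinib library being the lowest of the 4. In MAVER1, BID fell by 0.47. In all, 7 of 10 members passed in JEKO1, 2 in JVM2 and 5 in MAVER1, where 33.3%, 3.27% and 32.7% of all genes passed. With library totals in place of TMM, MCL1 (-0.13, adjusted p = 0.288) and BAK1 (-0.10, adjusted p = 0.316) did not pass in JEKO1, and BCL2 passed in JVM2 (0.44, adjusted p = 0.0425).

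For ibrutinib, no member differed between the lines (0 of 10, DESeq2 also 0 with 0.241% of genes; 0% of genes with edgeR, and 2.5% at an unadjusted p under 0.05). In no line did a member pass, where 0.091% of genes did in JEKO1, 0.00536% in JVM2 and 0% in MAVER1. The BID value was -0.51 in JEKO1 (95% interval -0.78 to -0.24, adjusted p = 0.191), -0.15 in JVM2 and -0.29 in MAVER1.

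BCL2A1 in JEKO1 was set beside other NF-kB target genes, first with ibrutinib. Of 9 NF-kB targets listed, 7 were tested, and all 7 had lower levels in the JEKO1 ibrutinib library than in the JEKO1 control (log2 ratio -2.85 to -0.72), and all 7 had higher levels in JVM2 (0.04 to 0.55), while in MAVER1 3 were higher and 4 lower (-0.33 to 0.07). Over all genes tested, 46.6% were lower in that JEKO1 ratio, 46.8% higher in that of JVM2 and 48.6% lower in that of MAVER1. With ironomycin BCL2A1 had a log2 ratio of -3.01 in JEKO1. Of the 7 targets there, 1 was higher and 6 were lower (-1.02 to 0.12, median -0.26), beside 47.1% of all genes lower. Whether NF-kB had a part in the BCL2A1 values was not tested. ICAM1, an adhesion molecule, had 1468 reads in the JEKO1 control and 202 with ibrutinib, and TNFAIP3, an inhibitor of NF-kB signalling, 869 and 216. With both drugs these were 530 and 1039 reads, above the ibrutinib library, and BCL2A1 had 9. Of the 7 targets in JEKO1, 6 were higher and 1 lower with both drugs than with ibrutinib (log2 ratio -0.04 to 2.17, median 0.79). The share of all genes was not counted for that ratio. Against the JEKO1 control, 1 was higher and 6 were lower with both drugs (-1.55 to 0.17, median -0.76), beside 45.1% of all genes lower. Over the 3 lines, 0 of 7 passed with ibrutinib, with a median log2 fold change of -0.48 beside 0.00 over all genes. Each of these ratios compares 1 library with 1 library.

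**Figure D5:**
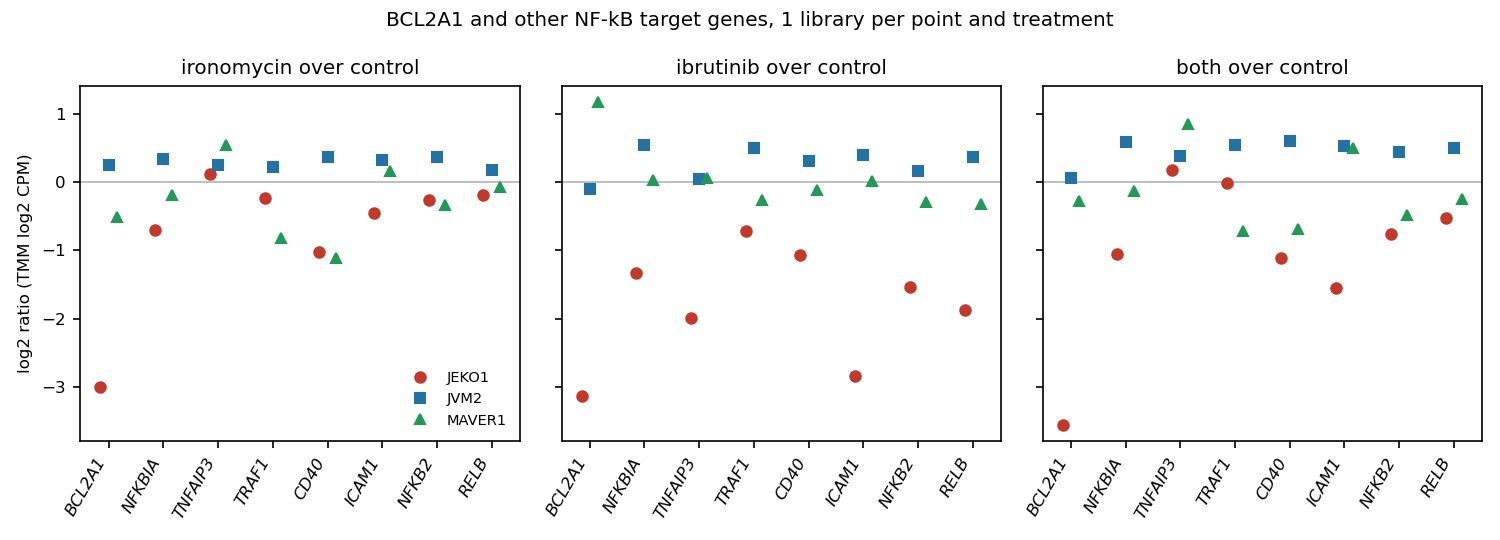
Log2 ratio to the control library of the same line for BCL2A1 and 7 other NF-kB target genes with ironomycin, ibrutinib and both drugs, 1 library against 1 library per point. With ibrutinib all 8 genes lie below 0 in JEKO1, and the BCL2A1 points of MAVER1 rest on 3 to 14 reads.

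A further list held 14 transcription factors known to act on these genes, some of them NF-kB genes also counted above. With both drugs 4 of 14 rose and 0 fell, beside 14.2% of all genes that rose and 14% that fell. They were DDIT3 (1.82), which encodes the stress factor CHOP, ATF3 (1.18), FOXO3 (0.73) and ATF4 (0.48). DDIT3 had 741 reads in the JEKO1 control and 6034 with both drugs, 441 and 752 in JVM2 and 552 and 1942 in MAVER1. Its ironomycin effect differed between lines (adjusted p = 0.00875), as did that of ATF3 (adjusted p = 0.00433).

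Among 12 further BCL2 family genes tested of 13 listed, 3 rose and 1 fell with both drugs, so that 4 of 12 passed where 28.2% of all genes did, with a list median of -0.02 beside 0.05 over all genes. BCL2L2, the anti-apoptotic BCL-W, rose by 0.64, the BH3-only genes BMF by 0.90 and HRK by 1.30, and BCL2L12 fell by 0.43. HRK had 537, 441, 974 and 1003 reads in JEKO1 and 186, 375, 350 and 693 in MAVER1, in the order control, ironomycin, ibrutinib and both drugs, and 0 or 1 in JVM2. BMF had 821 reads in the MAVER1 control and 2718 with both drugs, and 1336 and 1434 in JVM2.

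Of 11 genes for caspases, the apoptosome and other mitochondrial proteins, 4 fell with both drugs and 0 rose. Over all genes 14% fell and 14.2% rose, the background for the lists named next as well. The 4 were CYCS (-0.57), the gene of cytochrome c, AIFM1 (-0.44), ENDOG (-0.43) and CASP9 (-0.37). Of 7 inhibitors of apoptosis and their antagonists, XIAP (0.57) and BIRC2 (0.25) rose and BIRC5 (-0.77), the gene of survivin, fell. Of 8 death receptor genes, TNFRSF10B (0.77), the TRAIL receptor DR5, and CFLAR (0.62), its inhibitor FLIP, rose. Of 7 genes for turnover and partners of MCL1 and NOXA, the MCL1 ubiquitin ligase HUWE1 (0.33) rose, and UBE2C (-0.90), UBE2J2 (-0.43) and VDAC2 (-0.56), a mitochondrial channel that binds BAK1, fell. With either drug alone, 0 genes of these lists passed.

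The genes whose levels followed each member most closely, after centring within lines, are named as a description over 12 libraries that share lines, treatments and depth. BCL2 was closest to EEF2K (Pearson r = 0.99), BBC3 to MXD4 (0.99), BID to RNF126 (0.98), BAK1 to LRRK2 (0.98) and BCL2L11 to GPR63 (0.98). For BAX it was AKT1S1 (0.97), for MCL1 EIF4G1 (0.96), for PMAIP1 ZNF737 (0.96), for BCL2A1 DOK5 (0.94) and for BCL2L1 LINC02381 (0.93).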

How the data were processed

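RNA-seq was measured in 12 libraries of polyadenylated RNA, sequenced paired-end on DNBSEQ. Per the labels' processing notes, the submitters used STAR, DESeq2 and build GRCh37; versions and the counting tool are not given in the sources used here. The deposited values are unnormalized read counts, 1 value per Ensembl gene and library. Totals were 35448523 to 38630809 reads, and 0 columns were left unused.

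After filterByExpr, which left 18674 genes, and TMM scaling, all 12 libraries entered the quasi-likelihood test of edgeR 4.0.16 (R 4.3.3), modelled on treatment plus cell line, and p-values were adjusted by Benjamini-Hochberg over all these genes. The comparisons were each treatment versus control, both drugs versus either one, the departure from the sum, each drug's effect by cell line (2 coefficients tested together) and the level by cell line. The cell line was the replicate block because its libraries share 1 cell line. Deviations from treatment means correlated at 0.926 to 0.976 within lines (18 pairs) and at -0.705 to -0.127 between lines (48 pairs). Differences between the lines raise the former and the centring lowers the latter, so these values cannot show that cultures were paired. No source says that the cultures of a line were separate; p-values measure the spread between these libraries. Log2 CPM used a prior count of 2. RPKM used the union of exons in GENCODE 29 (GRCh38), which may differ from the models the authors counted on. Promoters are RefSeq's, GRCh38.p14; no coordinates were converted.

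Named genes were the 10 members, genes of the lists that passed, and for each member the gene with the highest correlation. The members and lists were chosen with earlier results of these data known. The tests were checked on simulated counts. Some listed genes and motifs are not reported here. Alternatives were DESeq2 1.42.0, other scalings, no filter, a fold threshold, no block, fewer libraries and leaving out lines; 2 scalings of the effects in single lines were added after the data were examined. Python 3.11.15, pandas 2.3.3 and matplotlib 3.10.9 were used for tables and plots.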

Additional observations from a re-analysis of the deposited data

Results flagged for a closer look

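The effect of ironomycin differed between the 3 lines, by the test of the difference itself, for 3 of the 10 members: BAX (adjusted p = 0.0262618), BCL2L11 (adjusted p = 0.0216806) and BBC3 (adjusted p = 0.00640944). The log2 fold changes in JEKO1, JVM2 and MAVER1 were -0.11, 0.16 and -0.49 for BAX, 2.29, -0.52 and 0.39 for BCL2L11 and 1.37, 0.48 and 0.39 for BBC3. Dose and line varied together, and the value of BCL2L11 in JEKO1 rests on 8 to 71 reads per library. Groups of 3 libraries were not searched for outlying samples.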

How the results depend on the processing

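The counts of members past the test depended on the setting: with both drugs against control and against ibrutinib, 0 members passed under 5 of the 10 alternatives (a fold threshold, no block, 6 libraries, and without JEKO1 or MAVER1). With ironomycin against control (0 of 10), 1 member passed without the filter on low counts and 4 with DESeq2, and leaving out a line gave 0 to 1. With both drugs against control (4 of 10), 0 passed with a fold threshold (log2 change of 1 or more), 0 in a fit on only the 6 libraries compared and 0 to 5 on leaving out a line. With both drugs against ibrutinib (5 of 10), the counts were 3 without the filter, 0 with the fold threshold, 0 with only the 6 libraries and 0 to 4 on leaving out a line. For the ironomycin effect by line (3 of 10), they were 5 with library totals, 5 without the filter, 5 with DESeq2, 1 with the fold threshold and 1 to 3 on leaving out a line. The replicate block is the cell line: without it, 0 members passed with both drugs against control and 0 against ibrutinib, and 0 genes of any kind. Over all genes, the call count with ironomycin (109) was 211 with library totals (86.3% of them higher, against 70.6%), 497 without the filter, 2362 with DESeq2, 40 with the fold threshold, 2 with only the 6 libraries and 1 to 1636 on leaving out a line. With both drugs against control (5268) it was 1175 with the fold threshold, 5 with only the 6 libraries and 22 to 6103 on leaving out a line, against ibrutinib (4359) 870, 306 and 1 to 5192, and for the ironomycin effect by line (1751) 1840 with library totals, 2225 without the filter, 2159 with DESeq2, 601 with the fold threshold and 260 to 1897 on leaving out a line, that is 9.85%, 6.25% and 11.6% of genes under the first 3. Library totals moved the median change of all genes by 0.12 (both drugs against control) and 0.10 (against ibrutinib) on the log2 scale. Of 900 values of single members under other settings, 777 kept their side of the threshold without a counted change of sign. Of the rest, 59 lost the call, 17 gained it and 47 changed sign without passing in either fit. Sign was compared only in tests with a single direction, so sign changes in the tests between lines were not counted. The cause of these changes was not tested, except that fewer libraries leave fewer degrees of freedom. The values of BCL2A1 in MAVER1 (3 to 14 reads) and BCL2L11 in JEKO1 (8 to 71 reads) rest on few reads. At similar library totals BCL2A1 had 1354 to 1750 reads in JVM2 and BCL2L11 8053 to 13116 in MAVER1, so the low counts were those of the line.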
